A study of Saccharomyces cerevisiae with 17 samples.

Results

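The 6 genes described here are the 5 flocculin genes of budding yeast, FLO1, FLO5, FLO9, FLO10 and FLO11, and FLO8, the gene of a transcription factor that turns several of them on. They were chosen by their gene names from the 6692 genes of the count table, and all 6 were among the 6162 genes with enough reads to be tested. The study sequenced poly(A) RNA of strains in which a gene of the nonsense-mediated decay pathway (NMD) was deleted. NMD removes mRNAs on which ribosomes meet a stop codon too early. The upf1Δ strain (upf1Δ::KlURA3, 3 libraries) lacks the RNA helicase at the centre of that pathway, and the nmd4Δ (nmd4Δ::KlURA3, 6 libraries) and ebs1Δ (ebs1Δ::KlURA3, 3 libraries) strains lack proteins that bind Upf1. The wild type (5 libraries) was BY4741, the MATa laboratory strain from which the deletions were made. All strains carried the plasmid pRS415, which holds LEU2, and grew in SD-LEU, synthetic medium without leucine. No library with the KlURA3 marker and an intact NMD gene was analysed here, so in each comparison with wild type the effect of the marker and that of the deletion cannot be told apart.

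Flocculins are large proteins anchored in the cell wall, with an N-terminal domain, a long middle part of repeats rich in serine and threonine, and a C-terminal signal for a lipid anchor. Flo1, Flo5 and Flo9 bind mannose chains on neighbouring cells and so draw cells into flocs, Flo10 adds weaker adhesion, and Flo11 serves invasive growth, pseudohyphae and biofilms. Laboratory strains of this lineage are known not to flocculate, because the FLO8 reading frame is interrupted by a nonsense codon and the adhesin genes, most of them near chromosome ends, are kept largely silent. Flo8 acts at FLO1 and FLO11 downstream of cyclic AMP and protein kinase A, while Sfl1, Nrg1, Nrg2 and the Tup1-Cyc8 corepressor hold FLO genes down.

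The reference genome shows the interruption of FLO8. In RefSeq R64, which is the sacCer3 build the reads were aligned to, FLO8 (YER109C, chromosome V, 375215 to 377614, minus strand) spans 800 codons and is annotated as a pseudogene. Codon 142 of the frame is a stop, at 377189 to 377191, so that 141 sense codons precede it and 1974 bases, or 82.2% of the span, follow. The stop codon is in capitals below, in the middle of 63 bases read 5′ to 3′ on the minus strand at chrV:377159-377221.
FLO8: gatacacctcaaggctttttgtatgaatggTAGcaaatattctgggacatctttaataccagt
The other 5 genes each have a single in-frame stop, at the end of the annotated frame. The sequence of the strains themselves was not read here.

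FLO1 (YAR050W, chromosome I, 203403 to 208016, plus strand) and FLO9 (YAL063C, chromosome I, 24000 to 27968, minus strand) lie near opposite ends of the same chromosome, 22.2 and 24 kb from the ends. FLO5 (YHR211W, chromosome VIII, 525392 to 528619, plus strand) lies 34.02 kb from an end, FLO10 (YKR102W, chromosome XI, 646356 to 649865, plus strand) 16.95 kb, and FLO11 (YIR019C, chromosome IX, 389572 to 393675, minus strand) 46.21 kb. FLO8 lies 199.3 kb from the nearer end of its chromosome. No other annotated gene overlaps any of the 6. FLO1 and FLO9 carry a tandem repeat of 135 bases, and a unit of it is the same, base for base, in both genes. That unit and the most similar stretch of equal length in FLO5 are set out below to show which reads can be assigned to a gene, at chrI:204527-204661 (plus strand) for FLO1, chrI:26710-26844 (minus strand) for FLO9 and chrVIII:526246-526380 (plus strand) for FLO5, with bases that differ from FLO1 in capitals.
FLO1: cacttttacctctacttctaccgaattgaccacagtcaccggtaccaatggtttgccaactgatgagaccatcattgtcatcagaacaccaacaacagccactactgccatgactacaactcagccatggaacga
FLO9: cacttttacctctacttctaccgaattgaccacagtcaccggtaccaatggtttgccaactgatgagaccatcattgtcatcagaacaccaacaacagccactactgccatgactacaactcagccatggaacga
FLO5: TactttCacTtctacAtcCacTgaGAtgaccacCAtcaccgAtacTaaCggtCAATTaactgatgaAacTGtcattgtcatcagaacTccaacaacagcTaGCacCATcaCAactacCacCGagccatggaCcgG
The FLO5 stretch differs from the FLO1 unit at 35 of 135 bases. At 85% identity or more, FLO1 held 9 copies of the unit, FLO9 9 and FLO5 0. FLO5 has a tandem repeat of different sequence, also of 135 bases, over 34.1% of its span. FLO11 has repeats of its own, of 45 bases, which read as follows at chrIX:391534-391578 (minus strand) and are followed directly by an identical copy.
FLO11: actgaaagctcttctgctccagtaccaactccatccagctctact

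The start of FLO9, unlike its repeats, differs from that of FLO1. The first 90 coding bases are given below for chrI:203403-203492 (FLO1, plus strand), chrVIII:525392-525481 (FLO5, plus strand) and chrI:27879-27968 (FLO9, minus strand), again with differences from FLO1 in capitals, 16 in FLO5 and 35 in FLO9.
FLO1: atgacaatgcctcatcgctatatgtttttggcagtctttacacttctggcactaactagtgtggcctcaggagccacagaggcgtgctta
FLO5: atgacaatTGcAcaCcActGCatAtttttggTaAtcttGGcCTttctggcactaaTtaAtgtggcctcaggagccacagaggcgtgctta
FLO9: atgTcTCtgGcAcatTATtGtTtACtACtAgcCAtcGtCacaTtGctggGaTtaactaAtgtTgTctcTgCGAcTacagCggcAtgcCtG
Aligned over their whole length, FLO1 and FLO9 were 81.5% identical, FLO5 and FLO9 74.4% and FLO1 and FLO5 65.5%.

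How far a read can name its gene follows from these sequences. Of all 100-base windows in a gene, the share that occurs once in the genome was 100% for FLO8, 93.81% for FLO10, 87.54% for FLO5, 84.59% for FLO11, 62.86% for FLO1 and 53.8% for FLO9. Of 5968 genes of the table with such windows, 93.75% were fully unique. FLO1 shared 40.9% of its 50-base windows with FLO9 and 11.5% with FLO5, whereas FLO8, FLO10 and FLO11 shared none with another of the 6 genes. In FLO10 and FLO11 the windows found more than once lie in their own repeats. No source used here says how reads that fit several positions were counted, so the division of reads among FLO1, FLO5 and FLO9 is uncertain, and results for their summed reads are given beside the single genes.

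**Figure D1:**
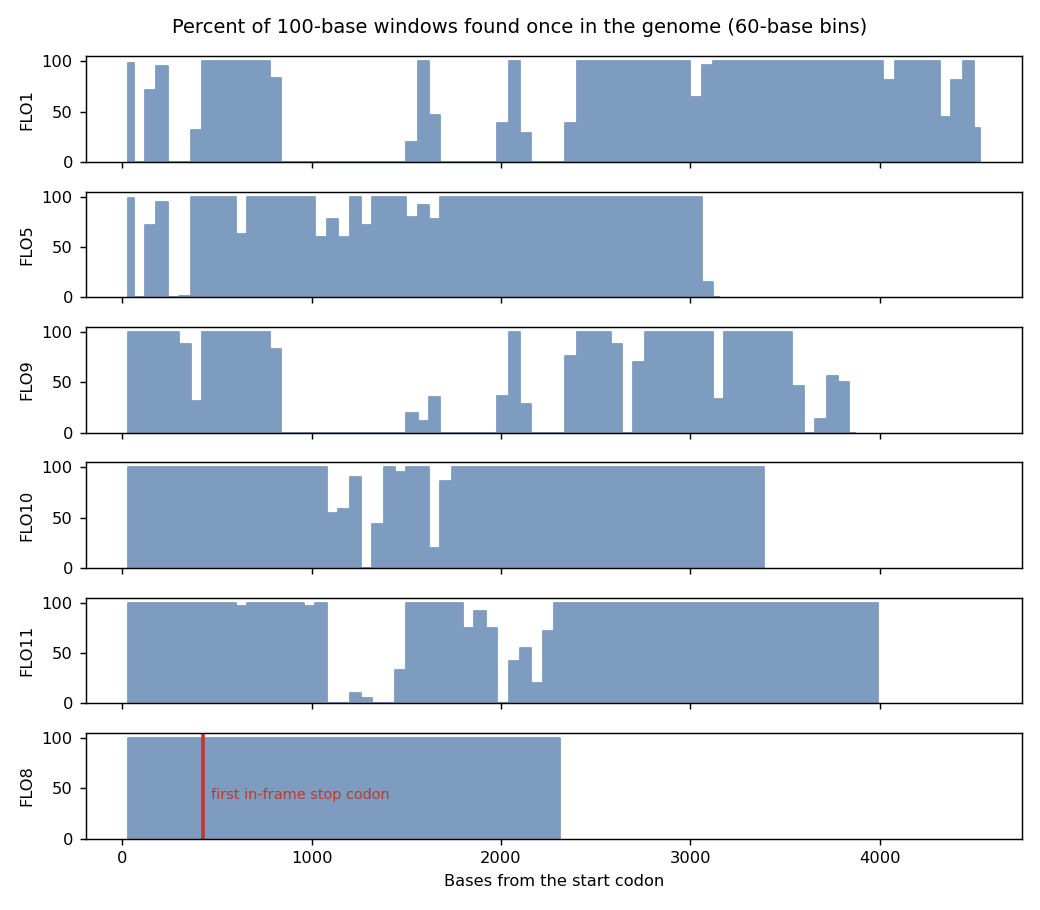
Share of 100-base windows that occur once in the genome (percent, vertical axes) along each of the 6 genes, in bins of 60 bases from the start codon (horizontal axis). FLO1 and FLO9 have long stretches with no unique window in their repeats, FLO5 few, and FLO8 is unique throughout, with its first in-frame stop codon (codon 142) marked in red.

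The 11 libraries of batch 1 had 19.75 to 29.67 M reads in genes, and the 6 of batch 2, all nmd4Δ or wild type, had 40.37 to 59.48 M. Libraries 4, 5 and 6 of nmd4Δ matched libraries 1, 2 and 3, and wild type libraries 3 and 4 matched 1 and 2, more closely than under any other matching. Means and SDs are therefore over 3 sets per genotype. The sample titles name each library as a separate biological replicate of its genotype. Beyond that, the labels do not say whether matched libraries come from the same culture or RNA. The edgeR fit takes all 17 libraries as separate, so where they are not, its SEs and p-values for nmd4Δ and wild type are too small. A limma fit with the matched sets as a block had a correlation of 0.7185 within sets, and the calls it ends are given beside the results. In the deletion strains the deleted gene had at most 61 reads per library (UPF1, listed as NAM7, 5 to 59; NMD4, 17 to 61; EBS1, 0 to 1), against at least 805 in any library of the other strains. The 6 MATa marker genes summed to 1349 to 1628 CPM in upf1Δ, 1943 to 2300 in nmd4Δ, 1939 to 2274 in ebs1Δ and 2340 to 2536 in wild type, and 4 MATalpha markers to 185.9 to 191.7 CPM in upf1Δ, 50.7 to 56.06 in nmd4Δ, 61.12 to 63.14 in ebs1Δ and 43.96 to 47.37 in wild type. SAG1 made up most of the MATalpha sum, with 162 CPM in upf1Δ and 32.6 CPM in wild type. STE3 was also called higher in upf1Δ than in wild type. MF(ALPHA)1 and MF(ALPHA)2 were not called, and MF(ALPHA)2 stood lower, at 0.268 CPM in upf1Δ and 0.421 CPM in wild type. The part of these shifts in the results below was not tested. Levels are given as CPM, read counts scaled to the library size after TMM adjustment. Changes are on the log2 scale with the SE of edgeR's quasi-likelihood fit, and a gene is called at a Benjamini-Hochberg adjusted p under 0.05 over all tested genes. P-values measure the spread between these libraries.

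All 6 genes were more abundant in upf1Δ than in wild type, and for each of them the lowest upf1Δ library lay above the highest wild type library. Such separation was not confined to them. For KAP123, beside FLO8, it ran the other way, with 343 to 420 CPM in upf1Δ and 468 to 516 CPM in wild type. The share of all tested genes whose libraries separated was not counted, in this comparison or in those below. The 5 adhesin mRNAs together summed to 198 to 226 CPM in the upf1Δ libraries, against 45.7 to 58 CPM in wild type. Of all tested genes 36.4% were called higher in this comparison, and the median change was -0.02, against 1.81 over the 6 genes. The percentile of each change among all tested genes was 98.2 for FLO9, 95.7 for FLO5, 94.2 for FLO11, 91.8 for FLO10, 89.1 for FLO1 and 78 for FLO8. In bulk RNA, more cells expressing an adhesin and more mRNA in each cell cannot be told apart.

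FLO9, a mannose-binding flocculin, changed most. It had 19.0, 19.0 and 21.4 CPM in the upf1Δ libraries, against 2.96, 2.48, 2.80, 2.52 and 2.92 CPM in the wild type libraries. The groups were far apart, and the spread within each was small. The mean was 19.8 ± 1.4 CPM in upf1Δ and 2.77 ± 0.231 CPM in wild type (SD, n = 3 sets each), a log2 fold change of 2.79 ± 0.149 (edgeR adjusted p = 3.51e-12).

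FLO5 gave most reads of the mannose-binding group. It had 93.0, 102 and 109 CPM in upf1Δ, against 22.7, 21.8, 23.4, 20.5 and 19.5 CPM in wild type. Every upf1Δ library was far above every wild type library. The log2 fold change was 2.20 ± 0.075 (edgeR adjusted p = 4.38e-15), the smallest SE among the 5 adhesin genes.

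FLO1, the founding member of the family, changed least of the adhesin genes. It had 15.5, 15.9 and 19.1 CPM in upf1Δ, against 7.37, 4.88, 7.01, 5.59 and 6.86 CPM in wild type. The groups did not overlap, and the wild type libraries differed more among themselves than for FLO5 or FLO9 relative to their level. The log2 fold change was 1.38 ± 0.133 (edgeR adjusted p = 2.76e-08).

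Summed into 1 feature, the reads of FLO1, FLO5 and FLO9 rose by 2.14 ± 0.075 on the log2 scale (edgeR adjusted p = 5.61e-15). This value does not depend on how reads were divided among the 3 genes. It still depends on whether reads that fit several positions were left out or counted more than once. Within the sum, FLO9 held 13.9% to 14.9% of the reads in upf1Δ libraries and 8.44% to 9.97% in wild type libraries. FLO1 held 11.6% to 12.8% in upf1Δ and 16.8% to 23.4% in wild type, and FLO5 held 72.9% to 74.5% in upf1Δ and 66.6% to 74.7% in wild type.

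FLO10, whose product gives weaker adhesion, had 35.4, 36.7 and 35.6 CPM in upf1Δ, against 13.8, 9.50, 12.4, 9.41 and 11.1 CPM in wild type. Its log2 fold change was 1.65 ± 0.134 (edgeR adjusted p = 4.7e-09). The upf1Δ libraries were nearly equal, with an SD of 0.678 CPM. FLO11, the adhesin of invasive growth, had 35.1, 35.8 and 40.9 CPM in upf1Δ, against 11.2, 7.98, 9.53, 7.62 and 8.54 CPM in wild type. Its log2 fold change was 1.96 ± 0.145 (edgeR adjusted p = 1.25e-09). Nearly all windows of FLO10, and most of those of FLO11, are unique, and neither shares a 50-base window with another of the 6 genes.

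FLO8 rose as well, and less than any adhesin gene. It had 77.1, 89.7 and 91.7 CPM in upf1Δ, against 52.4, 57.8, 55.7, 57.9 and 57.0 CPM in wild type. The lowest upf1Δ library stood clear of the highest wild type library. The mean was 86.2 ± 7.91 CPM in upf1Δ and 56.3 ± 2.01 CPM in wild type (SD, n = 3 sets each), a log2 fold change of 0.65 ± 0.071 (edgeR adjusted p = 1.6e-07). The 95% interval of the FLO8 change, 0.50 to 0.81, lies below that of FLO1, 1.09 to 1.67. The difference between the changes of 2 genes was not tested.

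**Figure D2:**
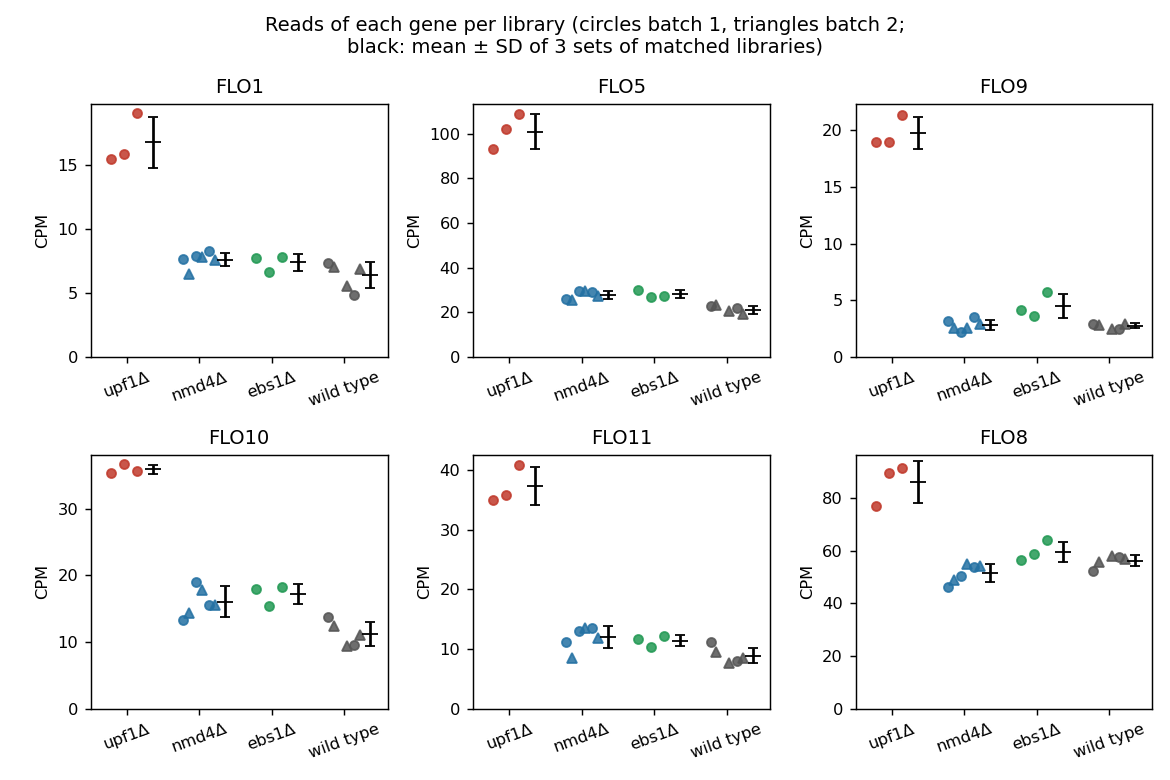
CPM of each gene in each library (vertical axes, from 0), with upf1Δ, nmd4Δ, ebs1Δ and wild type from left to right, circles for batch 1 and triangles for batch 2. Black marks are the mean ± SD over 3 sets of matched libraries. For all 6 genes the upf1Δ libraries lie above all others, and for FLO9 ebs1Δ also lies above wild type, at 3.67 to 5.73 against 2.48 to 2.96 CPM.

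The changes have to be read against a trend with expression in the whole table. With the tested genes cut into 5 equal groups by mean expression, the lowest group holds FLO9, FLO1 and FLO11, and in it 63.4% of genes were called higher in upf1Δ than in wild type and the median change was 0.92. In the next group, which holds FLO10, the share was 52.7% and the median 0.22. In the middle group, which holds FLO5 and FLO8, the share was 37.2%, the median 0.00 and the upper quartile 0.35. FLO9, with 2.79, and FLO11, with 1.96, lay above the upper quartile of their group, 1.79, and FLO1, with 1.38, lay below it. Mean expression was taken over all 17 libraries, upf1Δ included, so a rise in upf1Δ itself moves a gene toward a higher group. By wild type level alone, FLO5 stood at the 27.3 percentile of all tested genes and FLO10 at 18.7. Cut that way, both would fall in a lower group. Shares for groups cut by wild type level were not counted.

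**Figure D3:**
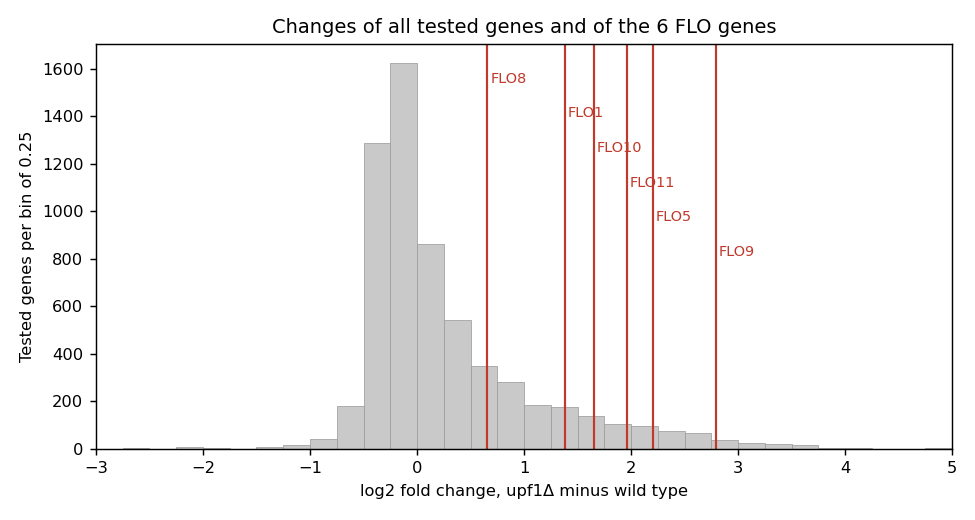
Number of tested genes (vertical axis) per 0.25 of the log2 fold change of upf1Δ minus wild type (horizontal axis, shown between -3 and 5), with red lines at the 6 FLO genes. Most genes lie near 0, FLO8 stands at 0.65, and the 5 adhesin genes stand between 1.38 and 2.79 in the right tail.

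Per kilobase of gene, FLO8 had the highest level of the 6 in wild type, 23.5 ± 0.837 CPM per kb (SD, n = 3 sets). FLO5 followed with 6.58 ± 0.544, FLO10 with 3.19 ± 0.517, FLO11 with 2.17 ± 0.32, FLO1 with 1.39 ± 0.226 and FLO9 with 0.698 ± 0.0583 CPM per kb. FLO8 stood at the 32.1 percentile of all tested genes with a length, FLO5 at 10, and the other 4 between 2.15 and 6.44. FLO1 and FLO9 are also the genes with the fewest unique windows, and the part of this in their levels was not tested. Per kilobase of unique 100-base windows, the wild type levels were 2.22 ± 0.36 CPM for FLO1 and 1.3 ± 0.108 CPM for FLO9, still below the 2.56 ± 0.378 CPM of FLO11, although FLO1 and FLO11 were within their spread. This scaling, here and for upf1Δ below, holds only where reads that fit several positions were left out, which is not known. In upf1Δ the order per kilobase was FLO8 with 35.9 ± 3.3, FLO5 with 31.3 ± 2.46, FLO10 with 10.2 ± 0.193, FLO11 with 9.08 ± 0.779, FLO9 with 4.99 ± 0.354 and FLO1 with 3.65 ± 0.43 CPM per kb. FLO8 and FLO5 were within their spread of each other there, and FLO9 stood above FLO1, the reverse of wild type, also per kilobase of unique windows (9.28 ± 0.658 CPM for FLO9 and 5.8 ± 0.685 CPM for FLO1 in upf1Δ). FLO5 was at the 36.8 percentile in upf1Δ.

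Loss of Nmd4 was compared with wild type to ask how far a factor bound to Upf1 affects these mRNAs. FLO5, FLO10 and FLO11 were called higher in nmd4Δ, by 0.37, 0.50 and 0.40 on the log2 scale, and FLO1, FLO9 and FLO8 were not called. Across all tested genes 13.6% were called higher, and 14.4% lower. FLO5 had a lowest, median and highest value of 25.8, 28.2 and 29.6 CPM in the 6 nmd4Δ libraries, against 19.5, 21.8 and 23.4 CPM in the 5 wild type libraries. It was the only 1 of the 6 genes whose nmd4Δ and wild type libraries did not overlap, and its change was 0.37 ± 0.058 (edgeR adjusted p = 0.000266). FLO10 had 13.3, 15.6 and 19.0 CPM in nmd4Δ, against 9.41, 11.1 and 13.8 CPM in wild type (0.50 ± 0.103, edgeR adjusted p = 0.00227). FLO11 had 8.56, 12.5 and 13.6 CPM in nmd4Δ, against 7.62, 8.54 and 11.2 CPM in wild type (0.40 ± 0.112, edgeR adjusted p = 0.0143). For both of these genes the ranges overlapped.

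The other 3 genes gave no call in nmd4Δ. FLO1 had 6.52, 7.76 and 8.26 CPM as the lowest, median and highest nmd4Δ values, against 4.88, 6.86 and 7.37 CPM in wild type (0.25 ± 0.101, edgeR adjusted p = 0.0689). FLO9 averaged 2.83 ± 0.408 CPM in nmd4Δ and 2.77 ± 0.231 CPM in wild type (SD, n = 3 sets each), with a 95% interval of the change from -0.25 to 0.29. That interval leaves out changes of the size seen in upf1Δ. FLO8 averaged 51.5 ± 3.49 CPM in nmd4Δ and 56.3 ± 2.01 CPM in wild type, a change of -0.12 ± 0.053 (edgeR adjusted p = 0.101).

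Within batches the nmd4Δ values were close to the pooled ones, with fewer calls. In batch 1 alone (3 nmd4Δ and 2 wild type libraries, fitted with the other strains) FLO5 changed by 0.34 (edgeR adjusted p = 0.0641), FLO10 by 0.45 (edgeR adjusted p = 0.158) and FLO11 by 0.39 (edgeR adjusted p = 0.161), none of them called. In batch 2 alone (3 libraries of each) FLO5 was higher by 0.38 (edgeR adjusted p = 0.00863) and FLO10 by 0.54 (edgeR adjusted p = 0.0104), and FLO11 stood at 0.41 (edgeR adjusted p = 0.139). A test of the difference between batches called none of 6058 genes (edgeR, 69 at an unadjusted p under 0.05), and for the 6 genes that difference lay between -0.19 and 0.09. Batch 2 libraries of nmd4Δ, and wild type libraries 3 and 4, matched single batch 1 libraries, so the batches may share cultures or RNA. Closeness between batches would then be given in advance, and this test cannot show that the nmd4Δ changes repeat. With matched libraries as a block in limma, FLO11 was not called (adjusted p = 0.076).

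Loss of Ebs1 also gave 3 calls of 6, all higher, in FLO5, FLO9 and FLO10. Of all tested genes 14% were called higher and 7.38% lower. FLO9 had 4.16, 3.67 and 5.73 CPM in the ebs1Δ libraries, against 2.48 to 2.96 CPM in wild type, a log2 fold change of 0.65 ± 0.168 (edgeR adjusted p = 0.00982). Every ebs1Δ library was above every wild type library, and replicate 3 was the highest. Without that replicate the change was 0.46 (edgeR adjusted p = 0.059), so the call rested on it. With matched libraries as a block in limma, FLO9 was not called either (0.57, adjusted p = 0.0554). FLO5 had 30.2, 27.0 and 27.5 CPM in ebs1Δ, against 19.5 to 23.4 CPM in wild type (0.36 ± 0.08, edgeR adjusted p = 0.00324). FLO10 had 18, 15.4 and 18.2 CPM in ebs1Δ, against 9.41 to 13.8 CPM in wild type (0.59 ± 0.141, edgeR adjusted p = 0.006). Neither gene's libraries overlapped between the strains. When only these 2 strains were fitted, FLO9 (edgeR adjusted p = 0.0558) and FLO10 (edgeR adjusted p = 0.0649) were no longer called.

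FLO1, FLO11 and FLO8 were not called in ebs1Δ. FLO1 averaged 7.4 ± 0.662 CPM in ebs1Δ and 6.43 ± 1.04 CPM in wild type (SD, n = 3 sets each), with a 95% interval of the log2 change from -0.12 to 0.51. FLO11 averaged 11.4 ± 0.979 CPM in ebs1Δ and 8.9 ± 1.31 CPM in wild type, with an interval from -0.09 to 0.59. FLO8 averaged 59.7 ± 3.88 CPM in ebs1Δ and 56.3 ± 2.01 CPM in wild type, with an interval from -0.04 to 0.28. The summed reads of FLO1, FLO5 and FLO9 changed by 0.32 ± 0.057 in nmd4Δ (edgeR adjusted p = 0.000807) and by 0.36 ± 0.077 in ebs1Δ (edgeR adjusted p = 0.00255).

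**Figure D4:**
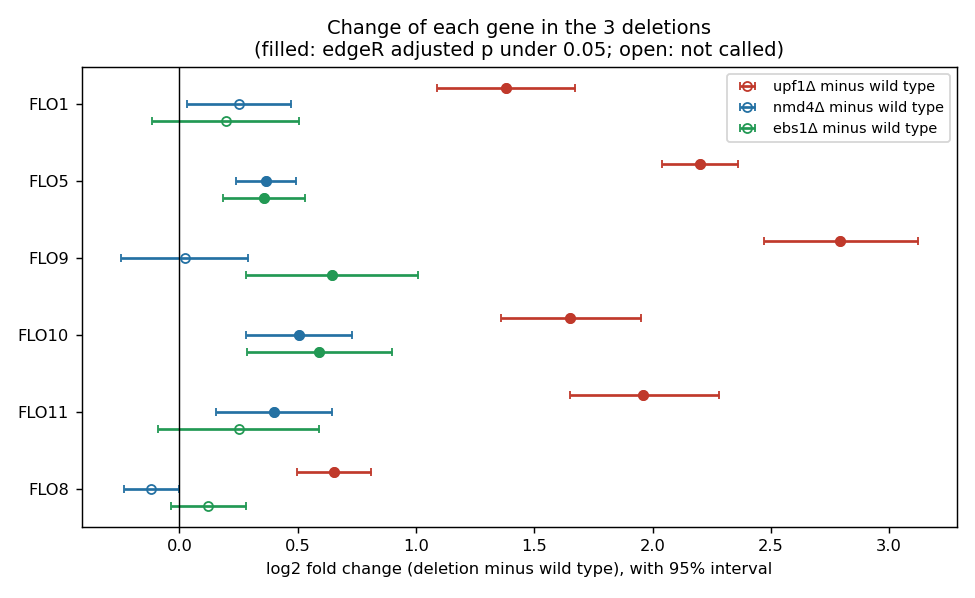
Log2 fold change of each FLO gene against wild type (horizontal axis) in upf1Δ, nmd4Δ and ebs1Δ, with 95% intervals, filled where edgeR's adjusted p was under 0.05. All upf1Δ changes are filled and lie between 0.65 and 2.79, and the nmd4Δ and ebs1Δ changes lie between -0.12 and 0.65.

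The deletions were also compared with each other, using the same libraries. All 6 genes were higher in upf1Δ than in nmd4Δ, by 0.77 (FLO8) to 2.77 (FLO9), where 36% of all tested genes were called higher. All 6 were higher in upf1Δ than in ebs1Δ as well, by 0.53 (FLO8) to 2.15 (FLO9), where 33.8% of all tested genes were called higher. No library of either strain reached the upf1Δ range for any of the 6 genes.

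Between nmd4Δ and ebs1Δ, FLO9 and FLO8 were called lower in nmd4Δ, and the other 4 genes were not called. Of all tested genes 16% were called lower in nmd4Δ than in ebs1Δ. FLO9 had 2.26 to 3.51 CPM in nmd4Δ, against 3.67 to 5.73 CPM in ebs1Δ (-0.62 ± 0.158, edgeR adjusted p = 0.0105). FLO8 had 46.4 to 55.0 CPM in nmd4Δ, against 56.4 to 64 CPM in ebs1Δ (-0.24 ± 0.069, edgeR adjusted p = 0.0177). Neither pair of ranges overlapped. Both calls were lost without ebs1Δ replicate 3 (edgeR adjusted p = 0.0719 for FLO9 and 0.105 for FLO8), and FLO8 alone lost its call without nmd4Δ replicate 1 (edgeR adjusted p = 0.055) or ebs1Δ replicate 2 (edgeR adjusted p = 0.0605). In batch 1 alone neither was called (edgeR adjusted p = 0.0628 for FLO9 and 0.0643 for FLO8). For FLO5 the 95% interval of the difference between nmd4Δ and ebs1Δ was -0.16 to 0.17.

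FLO8 can be set beside other genes listed as interrupted in this strain background, whose frames were not checked here. Of 12 such entries listed, 5 were matched in the count table and tested. All 5 were called higher in upf1Δ than in wild type, against 36.4% of all tested genes. The median was 1.34 over the list and -0.02 over all tested genes. The 5 had 4.66 (AQY2) to 12.9 CPM (AAD6) in wild type. In the lowest 2 of the 5 groups by expression, 63.4% and 52.7% of genes were called higher. Entries that are pieces of 1 gene, named next, are not independent. AAD6 and YFL057C, pieces of an aryl alcohol dehydrogenase gene, rose by 1.99 ± 0.064 and 1.91 ± 0.079. AQY2 and YLL053C, pieces of an aquaporin gene, rose by 1.21 ± 0.125 and 1.34 ± 0.123. CRS5, which encodes a metallothionein, rose by 0.50 ± 0.116, and FLO8, with 0.65, lay between it and AQY2. In nmd4Δ, where 13.6% of all tested genes were called higher, 4 of the 5 were (AQY2 0.48, YLL053C 0.37, AAD6 0.22, YFL057C 0.22), and in ebs1Δ, with 14% of all tested genes, AAD6 (0.53) and YFL057C (0.52) were. In the lowest group by expression, the share called higher was 21.1% in nmd4Δ and 21.7% in ebs1Δ. FLO8 itself was not called in either strain. Of the FLO1-like fragments, YAL065C was tested and not called in upf1Δ (1.01 ± 0.485, edgeR adjusted p = 0.0705).

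The other activators of FLO genes mostly did not rise in upf1Δ. Of 10 listed, 2 were called higher and 5 lower, where 36.4% of all genes were called higher and 35.1% lower, and the list's median was -0.22. MGA1, a relative of heat shock factor linked to pseudohyphal growth, rose by 1.52 ± 0.179, and PHD1, a regulator of pseudohyphal growth, rose by 0.53 ± 0.225 (edgeR adjusted p = 0.0496). STE12 and TEC1, which encode the factors that act together on filamentation genes, fell by 0.48 and 0.38 on the log2 scale. ASH1, MIT1 and MSS11, the last encoding the partner of Flo8 at FLO11, fell by 0.29, 0.42 and 0.19. In nmd4Δ 5 of the 10 were called lower (TEC1 -0.34, STE12 -0.20, MSS11 -0.15, ASH1 -0.15 and HMS1 -0.66) and none higher, where 14.4% of all tested genes were called lower and 13.6% higher. In ebs1Δ, where 7.38% were called lower, TEC1 (-0.27) was the single call.

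Of 9 listed repressors, none was called higher in upf1Δ and 3 lower, a share close to the 35.1% of all tested genes called lower, and the median was -0.17. CYC8 and TUP1, which encode the corepressor, each fell by 0.35 on the log2 scale (edgeR adjusted p = 2.04e-05 for CYC8 and 0.00155 for TUP1), and HDA2, a subunit of a histone deacetylase, fell by 0.20. SFL1, the repressor that opposes Flo8, stood at -0.18 ± 0.104 and was not called (edgeR adjusted p = 0.131). In nmd4Δ, NRG2 was called higher (0.34) and HDA3 lower (-0.12). In ebs1Δ 0 of the 9 were called by edgeR and 0 by DESeq2, with 1, CYC8, at an unadjusted p under 0.05.

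Upstream of these factors, the cyclic AMP and protein kinase A list had 2 of 15 genes higher and 7 lower in upf1Δ, against 36.4% and 35.1% of all tested genes, with a median of -0.23. GPA2, the G protein alpha subunit of glucose sensing, rose by 0.41 ± 0.065, and GPR1, its receptor, fell by 0.42 on the log2 scale. SRV2, which binds adenylate cyclase, fell by 0.35 and CDC25, the exchange factor of Ras, by 0.23. In the filamentation MAP kinase list 3 of 12 were higher and 5 lower, not far from the 36.4% and 35.1% over all tested genes, with a median of -0.11. The kinase genes STE11 and KSS1 rose by 0.63 ± 0.048 and 0.85 ± 0.073, and DIG2, an inhibitor of Ste12, rose by 0.78 ± 0.075. STE20, SHO1, CDC42, CDC24 and MSB2, at the upper end of the pathway, fell by 0.38, 0.35, 0.37, 0.26 and 0.40. In nmd4Δ the calls in this list were STE20 (-0.20) and DIG1 (-0.16).

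Among 8 other adhesin and mucin genes, 4 were higher and 2 lower in upf1Δ, where 36.4% of all tested genes were higher and 35.1% lower, with a median of 0.76. SAG1, the alpha-agglutinin of MATalpha cells, rose by 2.30 ± 0.054, DAN4, a cell wall mannoprotein, by 1.63 ± 0.112, FIG2, an adhesin of mating, by 1.34 ± 0.083, and BSC1 by 1.95 ± 0.602. HPF1, a mannoprotein of the wall, fell by 0.79 on the log2 scale and AGA2, the binding subunit of a-agglutinin, by 0.38. In nmd4Δ the calls were DAN4 (0.33) and SAG1 (0.15), and in ebs1Δ SAG1 (0.46), FIG2 (0.40) and HPF1 (-0.41).

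**Figure D5:**
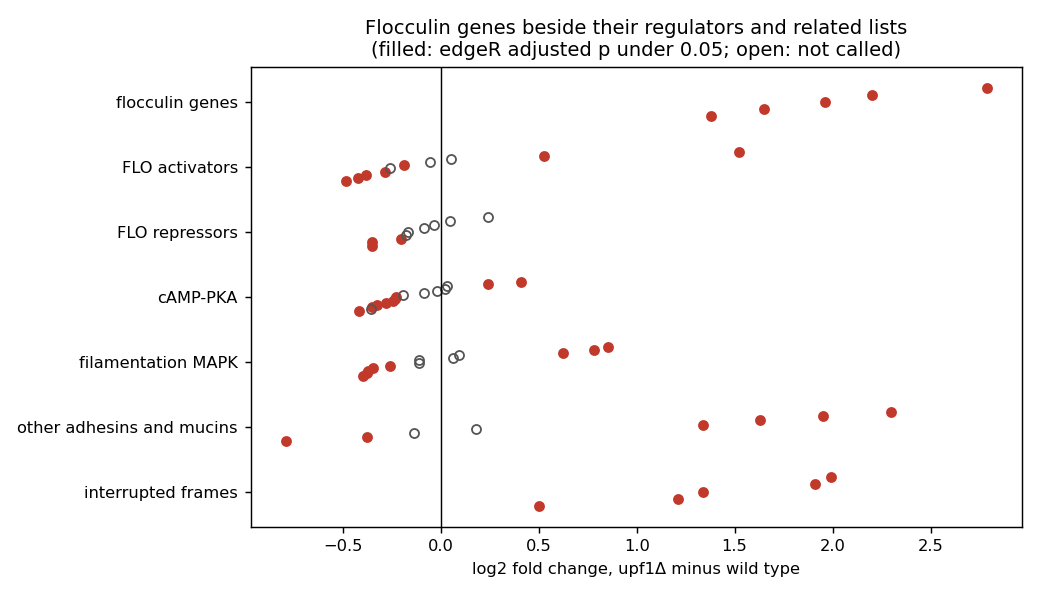
Log2 fold change of upf1Δ minus wild type (horizontal axis) for the 5 flocculin genes and for the tested genes of 6 lists (rows), filled red where edgeR's adjusted p was under 0.05 and open where not. The flocculin genes lie between 1.38 and 2.79, while the medians of the 4 lists of regulators lie between -0.23 and -0.11.

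Most tested genes beside the adhesin genes were higher in upf1Δ too. Neighbours were the nearest protein-coding genes or pseudogenes of the count table that did not overlap, so other annotated features in between may have been passed over. Of those on each side of the 5 adhesin genes, 8 of 10 had enough reads to be tested. Of the 8, 7 were called higher and none lower, where 36.4% of all tested genes were called higher. Those 7 had low means in wild type, 0.452 (YIR018C-A) to 24.1 CPM (SIR1). In the lowest 2 of the 5 groups by expression, 63.4% and 52.7% of genes were called higher. The part of this trend in the count was not tested. YHR210C, 3655 bases from FLO5, rose by 2.62 ± 0.108, and NFT1, 3215 bases from FLO10, by 1.92 ± 0.066. YIR018C-A and YIR020C, on either side of FLO11, rose by 2.43 ± 0.227 and 1.63 ± 0.155. YAL063C-A and GDH3, a glutamate dehydrogenase gene, flank FLO9 and rose by 2.15 ± 0.193 and 1.37 ± 0.128. SIR1, a silencing gene beside FLO10, rose by 0.98 ± 0.073. SWH1, 7218 bases from FLO1, stood at -0.09 ± 0.077 and was not called. YAR064W beyond FLO1 had at most 3 reads per library and YHR212W-A beyond FLO5 had 0. The neighbours of FLO8 went the other way: GLE2, which encodes a nuclear pore protein, fell by 0.25 and KAP123, which encodes an importin, by 0.31. These genes had higher means in wild type, 95.1 CPM for GLE2 and 487 CPM for KAP123. In the upper 2 of the 5 groups by expression, 51.1% and 66.7% of genes were called lower.

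In nmd4Δ 4 of the 8 neighbours of adhesin genes were called higher, against 13.6% of all tested genes: YHR210C (0.35), YAL063C-A (0.59), NFT1 (0.30) and YIR018C-A (0.70). In ebs1Δ YHR210C (0.53), NFT1 (0.50) and YIR018C-A (1.04) were called higher, against 14% of all tested genes. In the lowest 2 groups by expression, the share called higher was 21.1% and 18.8% in nmd4Δ, and 21.7% and 23.7% in ebs1Δ. YAL063C-A thus was called in nmd4Δ where FLO9 beside it was not, and in ebs1Δ FLO9 was called and YAL063C-A was not (0.62 ± 0.221). Whether the 2 genes differed was not tested. YAL063C-A and YIR018C-A had few reads, 24 to 181 and 8 to 69 per library.

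Over the 12 sets of libraries, Pearson correlations of log2 CPM between pairs of the adhesin genes ran from 0.93 to 0.99, and between FLO8 and an adhesin gene from 0.86 to 0.96. These values are descriptions: the sets share 3 upf1Δ sets that stand apart from the other 9. Over the 9 sets without upf1Δ they ran from 0.22 to 0.92 among the adhesin genes and from -0.09 to 0.70 between FLO8 and an adhesin gene. FLO5 and FLO10 (0.92) and FLO1 and FLO11 (0.90) were the closest pairs there, FLO9 and FLO11 (0.22) the least alike, and FLO8 was closest to FLO9 (0.70).

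The genes most like each member over the 12 sets were found among all tested genes. For FLO1 they were FLO11 (0.991), HUA1 (0.985) and YKR104W (0.984), the last lying on the same chromosome arm as FLO10. For FLO5 they were YCR045W-A (0.999), HAL1 (0.998), which encodes a protein of salt tolerance, and PUS2 (0.998), a tRNA pseudouridine synthase gene. For FLO9 they were RED1 (0.996), a gene of the meiotic chromosome axis, NIT1 (0.993), a nitrilase gene, and LPL1 (0.992), a phospholipase gene. For FLO10 they were SPO73 (0.988), YMR153C-A (0.985) and ICS3 (0.985), and for FLO11 YIL055C, FLO1 and TRK2, a potassium transporter gene (0.991 each). For FLO8 they were NSI1 (0.994), MET16 (0.988), an enzyme gene of sulfate assimilation, and ECM32 (0.988). Such likeness was common, since between 231 (FLO8) and 794 (FLO5) tested genes had a correlation over 0.95 with the member.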

How the data were processed

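Libraries kept strand and were made after poly(A) selection, per the labels' protocols. The authors deposited raw read counts per gene. Per the submitters' processing notes, STAR 2.7.11a, featureCounts and Subread 2.0.5 were used on sacCer3. The sources used here do not give the annotation, the strand setting or the treatment of multi-mapping reads.

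Counts were fitted in R 4.3.3 with edgeR 4.0.16 (filterByExpr by genotype, TMM scaling, robust quasi-likelihood fit with genotype and batch, 17 libraries, 12 residual degrees of freedom). Tests were two-sided. SE is the size of the log2 fold change over the square root of F, and 95% intervals use the t distribution with 12 degrees of freedom. Sequence windows, repeats and neighbours came from RefSeq R64. Correlations used log2 CPM (prior count 2) with batch removed, as means of matched sets. The fit was tested on simulated data.

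Members, gene lists and tests were chosen with earlier results of these data known. Named genes are the members, their neighbours, the 3 deleted genes, the 3 genes most correlated with each member, and up to 4 called genes of lowest p per list; others were chosen after their values were seen. Of the listed genes, 9 were not matched. DESeq2 1.42.0 and limma 3.58.1 served as alternatives.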

Additional observations from a re-analysis of the deposited data

Results flagged for a closer look

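Of 12 groups of 4 to 10 libraries examined (6 genes in nmd4Δ and in wild type), 1 had a library that stood apart from the rest. FLO1 in nmd4Δ replicate 4 had 6.52 CPM, against 7.63 to 8.26 CPM in the other nmd4Δ libraries. Chance flags about 1 in 20 such groups. Without that replicate FLO1 was called higher in nmd4Δ than in wild type, at 0.30 on the log2 scale (edgeR adjusted p = 0.0434).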

How the results depend on the processing

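In the 3 comparisons of upf1Δ, all 6 genes (4 features where FLO1, FLO5 and FLO9 were summed) were called higher under every alternative listed and without any single library. In nmd4Δ against wild type, 3 calls became 0 in batch 1 alone and 0 with replicate number as a block (replicate block, batch 1 only). That block left 6, 2 and 2 calls in upf1Δ against wild type, ebs1Δ against wild type and nmd4Δ against ebs1Δ. Same-numbered batch 1 libraries had residual correlations of -0.05 to 0.47 in 15 pairs, with a median of 0.10 and 9 of them over 0.1. Differently numbered ones had -0.59 to 0.35 in 30 pairs, with a median of -0.06 and 4 of them over 0.1. Same-numbered libraries were thus somewhat more alike. The main fit did not take the numbers as pairing, and whether they mark pairs is not known. In ebs1Δ against wild type, 3 calls became 1 with only those 2 strains fitted. In nmd4Δ against ebs1Δ, 2 calls became 0 in batch 1 alone, 1 with only those 2 strains, 1 with matched libraries summed and 1 with FLO1, FLO5 and FLO9 summed, which leaves fewer features. Leaving out 1 library gave 0 to 2 calls there, 2 to 3 in ebs1Δ against wild type and 3 to 4 in nmd4Δ against wild type. FLO1 was called in nmd4Δ with DESeq2 (adjusted p = 0.0332). No direction of a called gene reversed. The 2-batch matching limits nmd4Δ and wild type to 3 sets each. Fitting batch 2 alone was chosen after seeing the data and gave 2 calls in nmd4Δ. Except where stated, the cause was not tested. FLO9 had 57 to 155 reads per library outside upf1Δ, the fewest of the 6 genes.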
